A study of Mus musculus with 6 samples.

Results

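Solute carriers are the membrane proteins that move amino acids, ions, metals, sugars, vitamins and nucleotide sugars across the plasma membrane and the membranes of organelles. The 52 genes described here were chosen by name and by level. Their symbols follow the solute carrier pattern, mitochondrial Slc25 carriers and the iron carriers Slc11a2 and Slc40a1 are left out, and each reached 1 FPKM (a fragment count scaled by transcript length and library depth) in at least 1 library. They are 52 of 323 rows of the deposited table that match the name pattern and 52 of 24255 rows in all. Of the 271 rows under the minimum, 110 were listed at 0 in every library and 161 were above 0. Because the level in these same libraries chose the genes, a gene that passed through 1 group alone had to differ between groups in its highest value: 35 reached 1 FPKM in both groups, 10 in WT libraries only and 7 in Lsm14b-KO libraries only. Slc7a2 (highest value 1.011 FPKM), Slc22a29 (1.07) and Slc35a5 (1.18) lay just inside the minimum, and Slc15a2 (0.929), Slc6a4 (0.913) and Slc35d2 (0.876) just outside it.

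The oocyte lives in metabolic contact with its cumulus cells, which surround it and pass it pyruvate, amino acids and other small molecules through gap junctions. Its own carriers take up glycine and proline, which serve as organic osmolytes, bring in the zinc that meiosis needs, exchange protons and bicarbonate to set the pH of the cytoplasm, and load nucleotide sugars into the Golgi apparatus for glycosylation. LSM14B is an RNA-binding protein of oocytes that belongs to the ribonucleoprotein particles in which maternal mRNAs are kept.

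RNA-seq libraries were made by Smart-seq2 from fully grown oocytes (FGOs) at the germinal vesicle (GV) stage, each from 20 pooled oocytes collected 46 h after mice received 5 IU of PMSG, a gonadotropin that stimulates follicle growth. There were 3 libraries from WT and 3 from Lsm14b-KO females. The knockout mice were homozygous for Lsm14b tm1a(KOMP)Mbp, a knockout-first allele with a reporter insertion that is present in every cell of the animal, on a C57BL/6J background. The age of the mice used for these libraries is not given in the sources used here, and the labels do not say whether the 3 libraries of a group came from separate animals, so the p-values measure the spread between these samples, which may be technical.

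Lsm14b mRNA measured 2.77, 3.98 and 1.72 FPKM in the WT replicates, while the knockouts had 0, 0 and 0.102 FPKM, so every knockout library lay below every WT library. The WT libraries correlated with each other at Pearson's r of 0.981 to 0.986 over the log-transformed levels of the tested genes. Lsm14b-KO replicate 1 lay nearer to them (0.952 to 0.954) than replicate 2 (0.867 to 0.890) or replicate 3 (0.917 to 0.929). The depth, estimated from the smallest steps of the FPKM values, was about 4000000 to 4530000 fragments in WT and 5270000, 7770000 and 8560000 in Lsm14b-KO replicates 1, 2 and 3, so depth and genotype cannot be told apart. At that depth the median carrier rested on an estimated 15.7 to 19.2 fragments in a WT library and 21.8 to 31.8 in an Lsm14b-KO library. The 11 oocyte markers summed to 6909 to 8850 FPKM in WT and 6687 to 8610 FPKM in Lsm14b-KO. Within that list, with a median difference of 0.65, Nobox (12.5 against 65.8 FPKM) and Ddx4 (0.663 against 3.22 FPKM) rose and Dazl (139 against 47.4 FPKM) fell. Ddx4 reached 1 FPKM in Lsm14b-KO libraries only, so the filter itself required its highest value to differ between groups. The call of Dazl was lost without WT1, WT2, WT3 or KO3, on the TPM scale and after quantile normalization (adjusted p up to 0.125). The 12 cumulus and granulosa markers summed to 1.38 to 2.15 FPKM in WT and 3.17 to 4.41 FPKM in Lsm14b-KO, with Amh, Cyp11a1, Foxl2, Inhba and Slc38a3 listed at 0 in all 6 libraries. The red blood cell markers were listed at 0 throughout, and the leukocyte markers summed to 0 to 0.673 FPKM in WT and 0 to 0.728 FPKM in Lsm14b-KO. The part of the cumulus signal in the results below was not tested. In pooled oocytes, fewer cells of a type and less RNA per cell cannot be told apart.

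Carrier mRNA in WT oocytes was led by a single gene. Slc9b1, which encodes a sodium/proton exchanger known best from sperm, made up 41.2%, 39.6% and 32.0% of the summed FPKM of the 52 carriers in the 3 WT libraries and 13.8%, 3.95% and 5.53% in the Lsm14b-KO libraries. The summed level was 286, 265 and 236 FPKM in WT and 165, 218 and 170 FPKM in Lsm14b-KO, which placed every Lsm14b-KO library below every WT library. That held for the raw sum only. As a share of all FPKM in a library, the carriers made up 0.0230%, 0.0226% and 0.0207% in WT. In Lsm14b-KO the share was 0.0160%, 0.0386% and 0.0251%, so replicate 1 lay below every WT library and replicates 2 and 3 above every one. Without Slc9b1 the sums were 168, 160 and 161 FPKM against 142, 209 and 160 FPKM, and the groups overlapped. The order of the carriers by group mean differed between genotypes. In WT it ran Slc9b1, Slc4a8, Slc39a10, Slc39a6 and Slc45a3, and in Lsm14b-KO it ran Slc39a10, Slc39a6, Slc45a3, Slc9b1 and Slc4a8. In Lsm14b-KO replicate 1, however, Slc9b1 still led at 22.9 FPKM, beside 22.7 FPKM for Slc39a6 and 11.0 FPKM for Slc39a10. The Lsm14b-KO means of Slc45a3 (14.4 ± 3.78 FPKM), Slc9b1 (13.6 ± 8.02 FPKM) and Slc4a8 (10.7 ± 5.97 FPKM) differed by less than their SDs. In WT the means of Slc39a10, 16.9 ± 1.02 FPKM, and Slc39a6, 14.1 ± 2.16 FPKM (SD, n = 3), differed by little more than the spread of Slc39a6. Most carriers were scarce: 8 of 52 had a mean over the 6 libraries of at least 5 FPKM, 19 reached 1 FPKM in all 6, and 4 were listed at 0 in at least 1 library.

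**Figure D1:**
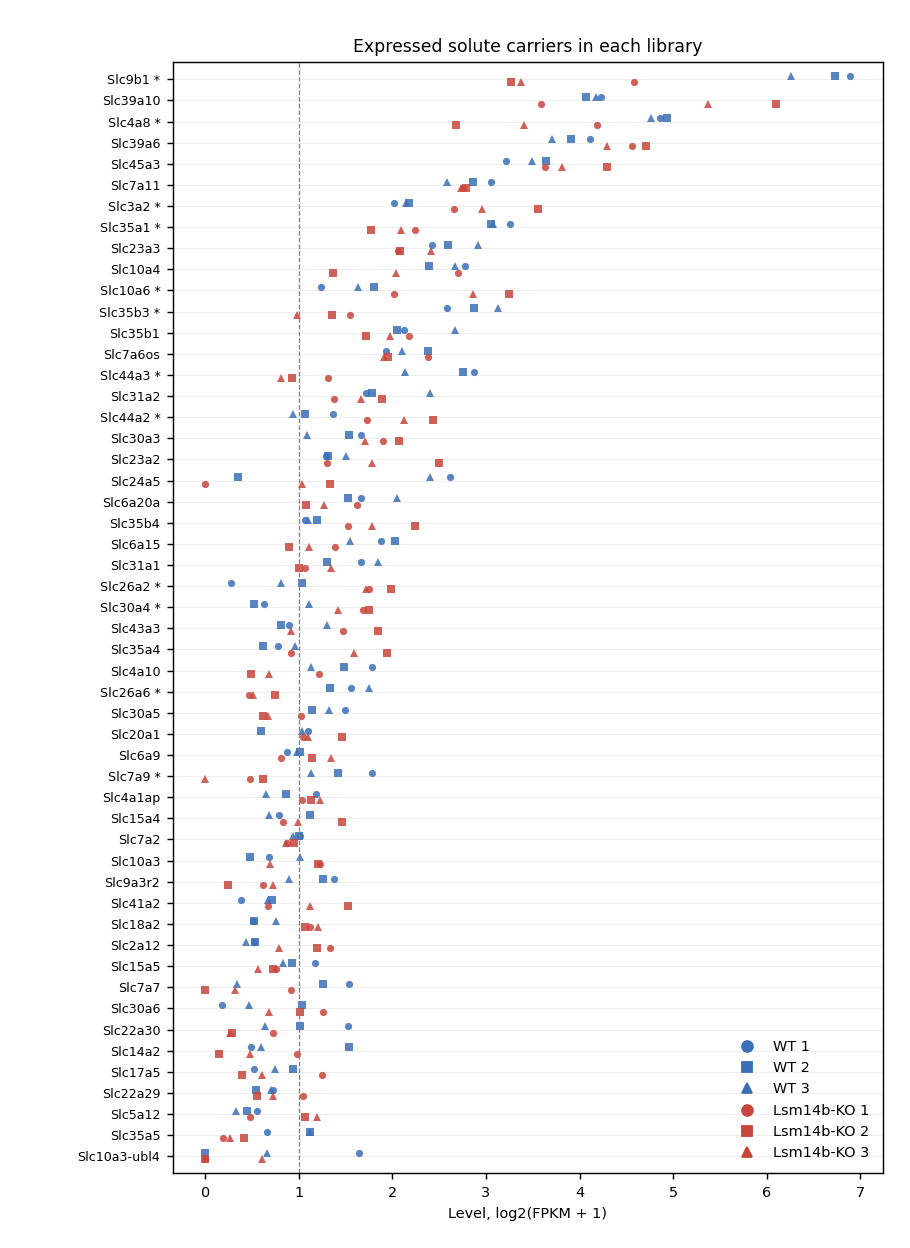
Level of each of the 52 carriers in each library, as log2(FPKM + 1), ordered by the mean over the 6 libraries; circles, squares and triangles are replicates 1, 2 and 3, the dashed line marks 1 FPKM, and an asterisk marks an adjusted p under 0.05. Slc9b1 stands at 75.7 to 118 FPKM in WT and at 8.60 to 22.9 FPKM in Lsm14b-KO, and most carriers sit within a few FPKM of 0 in both groups.

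Against WT, 5 carriers rose and 7 fell in Lsm14b-KO oocytes at an adjusted p under 0.05 (limma on log2(FPKM + 1), Benjamini-Hochberg adjustment over the 6398 genes that reached 1 FPKM in at least 1 library). Slc10a6, Slc26a2, Slc30a4, Slc3a2 and Slc44a2 rose, and Slc9b1, Slc35b3, Slc44a3, Slc4a8, Slc35a1, Slc7a9 and Slc26a6 fell. These were 9.62% and 13.5% of the 52 carriers, beside 6.38% of all tested genes called higher and 15.2% called lower. All 3 Lsm14b-KO values lay above all 3 WT values for 10 carriers and below them for 13, which is 19.2% and 25% of the carriers, beside 19.1% and 26% of all tested genes. The median difference was -0.06 on the log2(FPKM + 1) scale for the carriers and -0.08 for all tested genes, with 25 carriers above 0 and 27 below. The carriers as a group thus stayed near the background of the whole table in each count. Among the 35 carriers that reached 1 FPKM in both groups, 5 rose and 5 fell. The other called genes, Slc7a9 and Slc26a6, were among the 10 that reached it in WT alone.

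The split between rises and falls depended on the scale. The FPKM values of a library summed to between 1141300 and 1244200 in WT and to 1029700, 564670 and 676660 in Lsm14b-KO replicates 1, 2 and 3. Scaled so that every library had the same sum over all genes (TPM), the median difference of all tested genes moved from -0.08 to 0.40 and that of the carriers from -0.06 to 0.33. On that scale 8 carriers rose and 3 fell (15.4% and 5.77%), beside 13.02% and 7.60% of all tested genes. The 5 rises were called on both scales, Slc18a2, Slc2a12 and Slc39a6 joined them, and of the falls Slc9b1, Slc35b3 and Slc44a3 were called again. Slc18a2 and Slc2a12 reached 1 FPKM in Lsm14b-KO libraries only, so the choice of genes itself required their highest values to differ. Slc35a1, Slc4a8, Slc26a6 and Slc7a9 lay lower in Lsm14b-KO on both scales but did not pass on the TPM scale, with adjusted p = 0.126, 0.0692, 0.115 and 0.0848. Slc4a8 did not pass after quantile normalization either (-1.10, adjusted p = 0.0744). With no filter on low values, which put 14325 genes in the test, 5 of the 12 calls remained, all of them falls (Slc9b1, Slc35b3, Slc44a3, Slc35a1 and Slc26a6), beside 1.24% of those genes called higher and 3.78% lower.

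**Figure D2:**
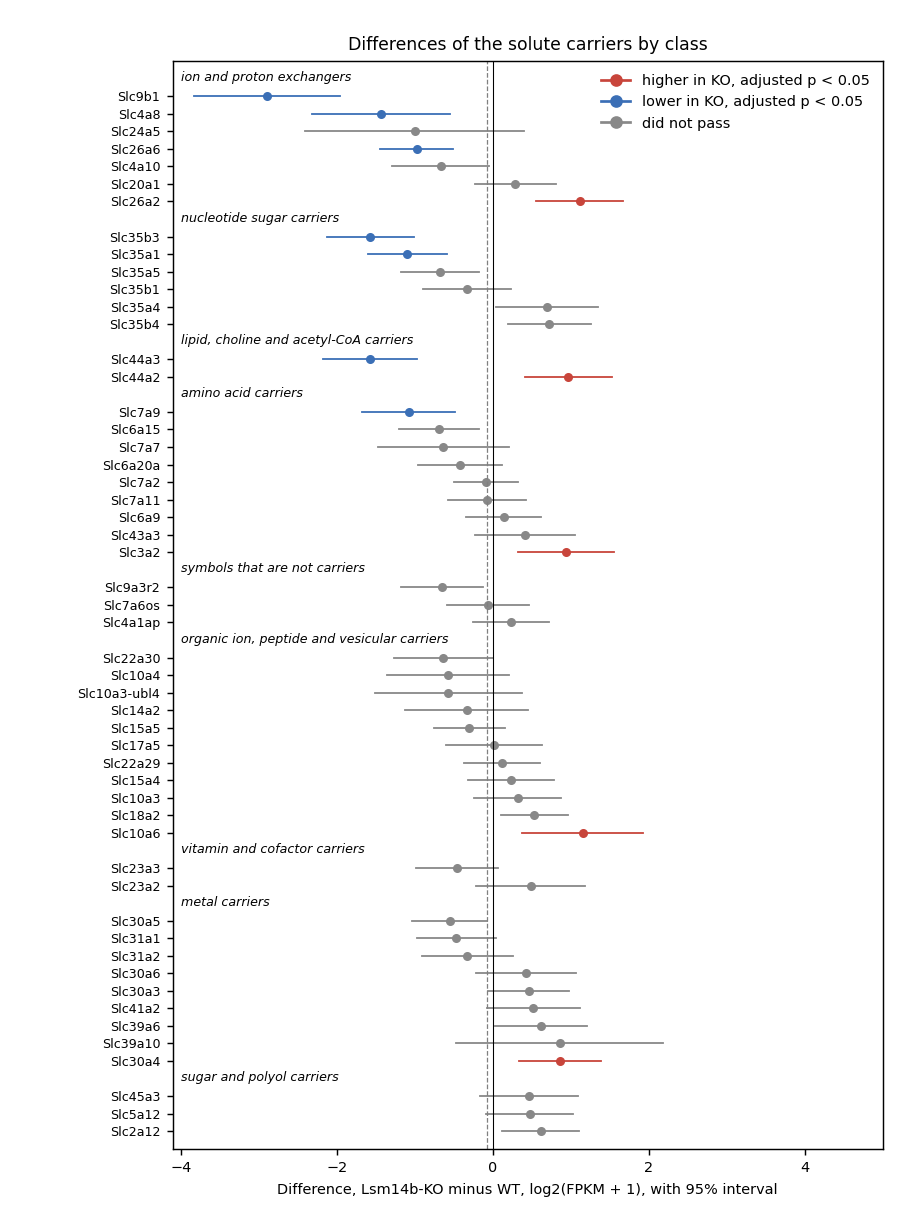
Difference between Lsm14b-KO and WT for each of the 52 carriers, grouped by class (set mainly by family number), on the log2(FPKM + 1) scale with the 95% interval from limma (n = 3 and 3). The dashed line is the median of all tested genes. Slc9b1 has the largest fall, at -2.89, and Slc10a6 the largest rise among called genes, at 1.15.

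The ion and proton exchangers held the largest change. Of the 7 expressed genes of this class, which also takes in the phosphate carrier Slc20a1, 3 fell, 1 rose and 3 did not pass. One of the falls, Slc26a6, reached 1 FPKM in WT libraries only. Over all tested genes, 15.2% were called lower and 6.38% higher, the share to set beside this and the class counts below. Slc9b1 (chr3:135348029-135397827, plus strand, mm10) stood at 118, 105 and 75.7 FPKM in WT and at 22.9, 8.60 and 9.38 FPKM in Lsm14b-KO. The groups were far apart, and Lsm14b-KO replicate 1 lay between WT and the other Lsm14b-KO libraries. The means, 99.5 ± 21.6 FPKM in WT and 13.6 ± 8.02 FPKM in Lsm14b-KO (SD, n = 3), were 7.31-fold apart. On the log2(FPKM + 1) scale it fell by 2.89 (SE 0.41, adjusted p = 0.0042), and the call held with each library left out in turn, with adjusted p between 0.00029 and 0.0366. Ranked by mean among all 6398 tested genes, Slc9b1 was at place 686 in WT and 1510 in Lsm14b-KO.

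Slc4a8, a sodium-driven chloride/bicarbonate exchanger (chr15:100761747-100823968, plus strand), was the second most abundant carrier in WT, at 27.9, 29.5 and 26.3 FPKM. In Lsm14b-KO it stood at 17.2, 5.39 and 9.61 FPKM. The WT libraries lay close together, and replicate 1 of Lsm14b-KO was again the nearest to them. The difference was -1.43 (SE 0.38, adjusted p = 0.0353). It was no longer called without any 1 of WT1, WT2, WT3, KO2 or KO3 (adjusted p = 0.0590 to 0.123), and the adjusted p was 0.0022 without KO1.

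Slc26a6 and Slc26a2, from the same family of anion exchangers, moved in opposite directions. Slc26a6, which exchanges chloride for oxalate and bicarbonate, stood at 1.94, 1.52 and 2.37 FPKM in WT and at 0.383, 0.680 and 0.422 FPKM in Lsm14b-KO. It fell by 0.97 (SE 0.20, adjusted p = 0.0163). Slc26a2, a sulfate carrier needed for the sulfation of cartilage proteoglycans, stood at 0.210, 1.04 and 0.748 FPKM in WT and at 2.37, 2.95 and 2.29 FPKM in Lsm14b-KO. It rose by 1.11 (SE 0.24, adjusted p = 0.0183). Neither gene overlapped between groups, although Slc26a2 rested on an estimated 6.3 to 35.7 fragments in WT. The call of Slc26a6 was lost without WT1, WT3 or KO3 (adjusted p = 0.0602 to 0.0817) and that of Slc26a2 without WT1, WT3, KO2 or KO3 (0.0507 to 0.0736). Slc24a5, Slc4a10 and the phosphate carrier Slc20a1 did not pass, with differences from -1.0 to 0.29. Slc24a5 varied most among replicates, at 5.13, 0.277 and 4.28 FPKM in WT and 0, 1.52 and 1.05 FPKM in Lsm14b-KO.

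Of the 6 expressed carriers of the Slc35 family, grouped by family number as nucleotide sugar carriers, 2 fell and 4 did not pass. None rose by limma, with 2 higher at an unadjusted p under 0.05. Slc35b3 carries PAPS, the sulfate donor rather than a nucleotide sugar, into the Golgi lumen (chr13:38932136-38960875, minus strand). It stood at 5.00, 6.35 and 7.76 FPKM in WT and at 1.93, 1.55 and 0.971 FPKM in Lsm14b-KO. Every Lsm14b-KO library lay well below the lowest WT library. The gene fell by 1.57 (SE 0.24, adjusted p = 0.0056), and the call held with each library left out (adjusted p = 0.0023 to 0.0409). Slc35a1, the carrier of CMP-sialic acid (chr4:34663257-34687438, minus strand), stood at 8.53, 7.33 and 7.42 FPKM in WT and at 3.73, 2.41 and 3.26 FPKM in Lsm14b-KO. It fell by 1.09 (SE 0.22, adjusted p = 0.0138) with no overlap, and the call was lost without WT1, WT2, WT3 or KO3 (adjusted p = 0.0586 to 0.0734). An exon of each of these genes overlaps an exon of a gene on the other strand (5033403F01Rik and Gm22849). The sources do not say whether the libraries kept strand, so reads of the partners cannot be told apart. The same holds for uncalled carriers, among them Slc2a12, Slc18a2, Slc6a9, Slc6a20a, Slc7a7, Slc24a5, Slc20a1, Slc35a4 and Slc35b4.

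The other 4 carriers of the Slc35 family did not pass. Slc35a5 (-0.68, adjusted p = 0.0581) lay lower and Slc35b4 (0.73, adjusted p = 0.0552) higher in every Lsm14b-KO library than in any WT library. Slc35a5 reached 1 FPKM in WT libraries only. Slc35a4 (0.70, adjusted p = 0.110) and Slc35b1 (-0.33, adjusted p = 0.337) overlapped between groups. The value of Slc35a4 is uncertain, since it has a near-identical copy, Gm5866.

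Both expressed members of the choline carrier family were called, in opposite directions. Slc44a3, a choline transporter-like protein (chr3:121459528-121532404, minus strand), stood at 6.35, 5.75 and 3.39 FPKM in WT and at 1.48, 0.899 and 0.754 FPKM in Lsm14b-KO. It fell by 1.57 (SE 0.26, adjusted p = 0.0072), and without KO3 the adjusted p was 0.0518, the highest of its alternatives, over which it ran from 0.0031. An exon of A530020G20Rik lies opposite an exon of Slc44a3. Slc44a2, which carries choline and ethanolamine (chr9:21320698-21355028, plus strand), stood at 1.57, 1.10 and 0.914 FPKM in WT and at 2.30, 4.39 and 3.36 FPKM in Lsm14b-KO. It rose by 0.97 (SE 0.24, adjusted p = 0.0284) with no overlap. That call was lost without any 1 of WT1, WT2, WT3, KO2 or KO3 (adjusted p = 0.0723 to 0.109). Slc44a3 was the more abundant of the pair in WT, at 5.16 ± 1.56 against 1.20 ± 0.338 FPKM, and Slc44a2 in Lsm14b-KO, at 3.35 ± 1.04 against 1.04 ± 0.384 FPKM (SD, n = 3).

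Of the 9 expressed amino acid carriers, 1 rose, 1 fell and 7 did not pass. Slc3a2 encodes 4F2hc, the heavy chain that brings several light chains of the Slc7 family to the cell surface (chr19:8706882-8723369, minus strand). It stood at 3.06, 3.53 and 3.41 FPKM in WT and at 5.33, 10.8 and 6.77 FPKM in Lsm14b-KO. The WT libraries were close together and the Lsm14b-KO libraries all higher. Slc3a2 rose by 0.94 (SE 0.27, adjusted p = 0.0421), and the call was lost without any 1 of WT1, WT2, WT3, KO2 or KO3 (adjusted p = 0.0783 to 0.148). Among its light chains, Slc7a11, the cystine/glutamate exchanger, stood at 7.29, 6.26 and 5.00 FPKM in WT and 5.74, 5.92 and 5.65 FPKM in Lsm14b-KO, which overlapped (-0.07, 95% interval -0.57 to 0.43, adjusted p = 0.813). Slc7a11 shares near-identical stretches with other annotated genes, among them Tuba1a, Tuba1b and Tuba1c, so its value is uncertain. Slc7a7, a light chain for cationic amino acids, was listed at 1.89, 1.40 and 0.262 FPKM in WT and 0.889, 0 and 0.248 FPKM in Lsm14b-KO. Slc7a5, Slc7a6 and Slc7a8, further partners of 4F2hc, stayed under the minimum, with highest values of 0.107, 0.167 and 0.0922 FPKM.

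Slc7a9 is the light chain of the carrier for cystine and dibasic amino acids that pairs with Slc3a1, which itself stayed under the minimum. Slc7a9 (chr7:35448796-35466036, plus strand) stood at 2.45, 1.68 and 1.18 FPKM in WT and at 0.393, 0.539 and 0 FPKM in Lsm14b-KO. It fell by 1.08 (SE 0.26, adjusted p = 0.0255), on an estimated 8.1 to 16.3 fragments in WT and 0 to 6.9 in Lsm14b-KO, and the call was lost without WT1, WT2 or KO3 (adjusted p = 0.0849 to 0.104). The glycine carrier Slc6a9 (GLYT1), by which the oocyte accumulates glycine to control its volume, stood at 0.835, 1.03 and 0.973 FPKM in WT and 0.754, 1.20 and 1.54 FPKM in Lsm14b-KO. The groups overlapped, and the difference of 0.14 had a 95% interval of -0.34 to 0.62 (adjusted p = 0.624). Slc6a20a (SIT1), the proline and betaine carrier, stood at 2.16, 1.89 and 3.14 FPKM in WT and 2.08, 1.11 and 1.42 FPKM in Lsm14b-KO (-0.42, 95% interval -0.96 to 0.12, adjusted p = 0.208). It has a near-identical copy, Slc6a20b, which stayed under the minimum, and reads could be split between them. On the TPM scale the differences of Slc6a20a and Slc7a11 were 0.02 and 0.53, and neither passed.

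Among the metal carriers, 1 of 9 rose, none fell and 8 did not pass by limma. At an unadjusted p under 0.05, 2 were higher and 1 was lower. Slc30a4 (ZnT4) moves zinc out of the cytoplasm (chr2:122681233-122702663, minus strand). It stood at 0.546, 0.436 and 1.16 FPKM in WT and at 2.21, 2.37 and 1.67 FPKM in Lsm14b-KO. It rose by 0.86 (SE 0.23, adjusted p = 0.0332) with no overlap. The call was lost without WT1, WT2, KO2 or KO3 (adjusted p = 0.0838 to 0.121). Its exons overlap 4930417H01Rik on the other strand.

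Slc39a10 and Slc39a6, the ZIP10 and ZIP6 zinc importers that bring zinc into the maturing oocyte, were the most abundant metal carriers in both groups. Slc39a10 was steady in WT, at 17.7, 15.7 and 17.1 FPKM, and scattered in Lsm14b-KO, at 11.0, 67.4 and 40.3 FPKM. Lsm14b-KO replicate 1 lay below all WT libraries and the other replicates far above them. The difference was 0.86 with a 95% interval of -0.47 to 2.19 (adjusted p = 0.288). Without KO1 it was 1.57 (adjusted p = 0.0036), and over its other leave-one-out fits it did not pass, up to an adjusted p of 0.673. Slc39a6 stood at 16.3, 13.96 and 12.02 FPKM in WT and at 22.7, 25.1 and 18.6 FPKM in Lsm14b-KO. All Lsm14b-KO values lay above all WT values, but the difference of 0.61 did not pass (95% interval 0.02 to 1.21, adjusted p = 0.115). It passed on the TPM scale (adjusted p = 0.0305) and after quantile normalization (0.0388), out of a range of 0.0305 to 0.269 over its alternatives. The copper carriers Slc31a1 and Slc31a2 had differences of -0.47 and -0.32, and the Golgi zinc carriers Slc30a5 and Slc30a6 of -0.55 and 0.43.

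Of the 11 organic ion, peptide and vesicular carriers, 1 rose and 10 did not pass by limma, with 2 higher and 0 lower at an unadjusted p under 0.05. Slc10a6 (SOAT), which takes up sulfated steroids (chr5:103605711-103629403, minus strand), stood at 1.36, 2.49 and 2.10 FPKM in WT and at 3.05, 8.50 and 6.29 FPKM in Lsm14b-KO. It rose by 1.15 (SE 0.33, adjusted p = 0.0449) with no overlap, replicate 1 of Lsm14b-KO being again the nearest to WT. The call was lost without any 1 of WT1, WT2, WT3, KO2 or KO3 (adjusted p = 0.107 to 0.166). The vesicular monoamine carrier Slc18a2 was higher in every Lsm14b-KO library, at 1.18, 1.09 and 1.31 FPKM against 0.426, 0.436 and 0.689 FPKM (0.53, adjusted p = 0.0751). It became a member through the Lsm14b-KO libraries alone. Slc22a29, Slc22a30 and Slc10a4 have near-identical copies among other genes, and Slc10a3-ubl4, a readthrough with Slc10a3, could not be matched to a single annotated gene, so their values are uncertain. None of these 4 was called.

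None of the 3 sugar and polyol carriers, the 2 ascorbate-family carriers or the 3 genes that share a solute carrier symbol without being carriers passed the test by limma. At an unadjusted p under 0.05 they held 1 gene higher (Slc2a12) and 1 lower (Slc9a3r2). Slc2a12 reached 1 FPKM in Lsm14b-KO libraries only and Slc9a3r2 in WT libraries only. Slc45a3, a proton-coupled sugar carrier, stood at 8.31, 11.5 and 10.3 FPKM in WT and 11.4, 18.7 and 13.1 FPKM in Lsm14b-KO. The lowest Lsm14b-KO value lay inside the WT range (0.47, 95% interval -0.16 to 1.09, adjusted p = 0.227). Slc2a12 was higher in every Lsm14b-KO library, at 1.52, 1.29 and 0.730 FPKM against 0.432, 0.442 and 0.350 FPKM (0.61, adjusted p = 0.0726). Slc5a12, whose family carries sugars but which itself carries lactate, had a difference of 0.47. Slc23a2, which imports vitamin C, and its relative Slc23a3 had differences of 0.49 and -0.46. The 3 genes that are not carriers were Slc4a1ap, Slc7a6os and Slc9a3r2, with differences of 0.23, -0.06 and -0.65.

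Many carriers known from oocytes or cumulus cells were scarce in these oocytes, as were most genes of the solute carrier pattern and of the whole table. Of 25 such genes on a fixed list, 5 were expressed by the rule and 20 stayed under the minimum. The same minimum was reached by 52 of 323 rows of the pattern and by 6398 of 24255 rows in all. The expressed ones were Slc6a9, Slc6a20a, Slc3a2, Slc39a6 and Slc39a10. Among the others, 6 were listed at 0 in all libraries, including the glutamine carrier Slc38a3, which cumulus cells express, and the lactate carrier Slc16a3. No gene of the Slc16 family of monocarboxylate carriers, and none of the nucleoside carriers, reached 1 FPKM. The pyruvate carrier Slc16a7 stood at 0.468, 0.717 and 0.794 FPKM in WT and 0.176, 0.300 and 0.215 FPKM in Lsm14b-KO. The glucose carrier Slc2a1 stood at 0.327, 0.382 and 0.423 FPKM in WT and 0.246, 0.504 and 0.351 FPKM in Lsm14b-KO.

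Lsm14b-KO replicate 1 stood nearer to WT than its partners, in the carriers as in the whole table. It lay within the WT range for 17 of the 52 carriers, replicate 2 for 9 and replicate 3 for 10, which is 32.7%, 17.3% and 19.2%, beside 29.6%, 18.3% and 22.6% of all tested genes. The median absolute distance from the WT mean was 0.47, 0.77 and 0.50 on the log2(FPKM + 1) scale for the carriers and 0.42, 0.76 and 0.58 for all tested genes, so over the carriers replicate 1 was little nearer than replicate 3. Of the 12 called carriers, replicate 1 was the nearest to the WT mean in 8, and replicates 2 and 3 in 2 each.

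The number of calls moved with the library left out, again over the whole table. Without KO1, 11 carriers were called higher and 11 lower (21.2% each), including all 12 that were called with it, beside 17.99% and 27.3% of all tested genes. Without WT1, WT2 or WT3 the carriers called higher were 0, 1 and 1, beside 1.03%, 0.985% and 1.28% of all tested genes, and those called lower 3, 4 and 4, beside 5.16%, 5.22% and 5.94%. The count of 0 without WT1 had 8 carriers higher at an unadjusted p under 0.05 by limma. Without KO2 or KO3 none was called higher by limma (8 and 9 at an unadjusted p under 0.05), beside 3.05% and 0.610% of all tested genes, and 6 and 2 were called lower, beside 10.5% and 4.31%. Slc9b1 and Slc35b3 were the carriers whose call held in all 6 of these fits.

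**Figure D3:**
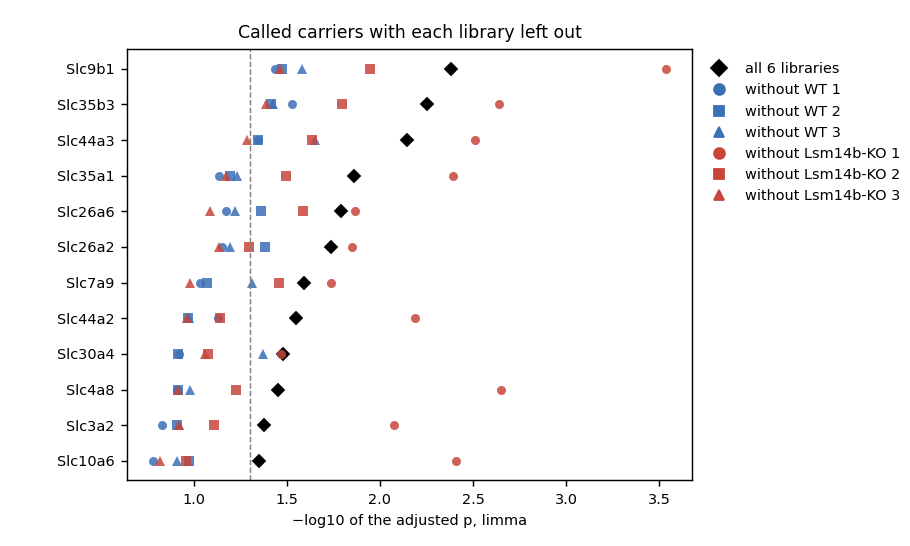
Adjusted p of the 12 called carriers, as -log10, with all 6 libraries (diamonds) and with each library left out (colours for the genotype of the library left out, symbols for its replicate number); the dashed line is an adjusted p of 0.05. All points of Slc9b1 and Slc35b3 lie to the right of the line, and leaving out Lsm14b-KO replicate 1 gives the largest value for 11 of the 12, the exception being Slc30a4.

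Transcript length moved with the difference, in the carriers as in the whole table. The length of a gene was that of its longest GENCODE transcript with a RefSeq match, or of its longest transcript where none matched. Spearman's rho between this length and the difference was 0.34 over the 51 carriers with a length and 0.36 over 6067 tested genes. It is a description across genes that share the same 6 libraries. The median difference of all tested genes was -0.58 in the shortest of 4 equal bins of transcript length and 0.29 in the longest. Carriers of 1354 to 2272 nt had a median of -0.52 (16 genes, 1 rise and 4 falls), and those of at least 3668 nt had a median of 0.50 (16 genes, 2 rises and 1 fall). The 7 carriers that fell had a median length of 2248 nt and the 5 that rose of 3478 nt. Slc4a8 fell with the longest transcript of the 52, 11790 nt, and Slc10a6 rose with 2124 nt. After a correction of the differences for length and GC content, the same 12 carriers were called. GC content showed no such relation, with rho of 0.10 over the carriers and -0.02 over all tested genes.

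**Figure D4:**
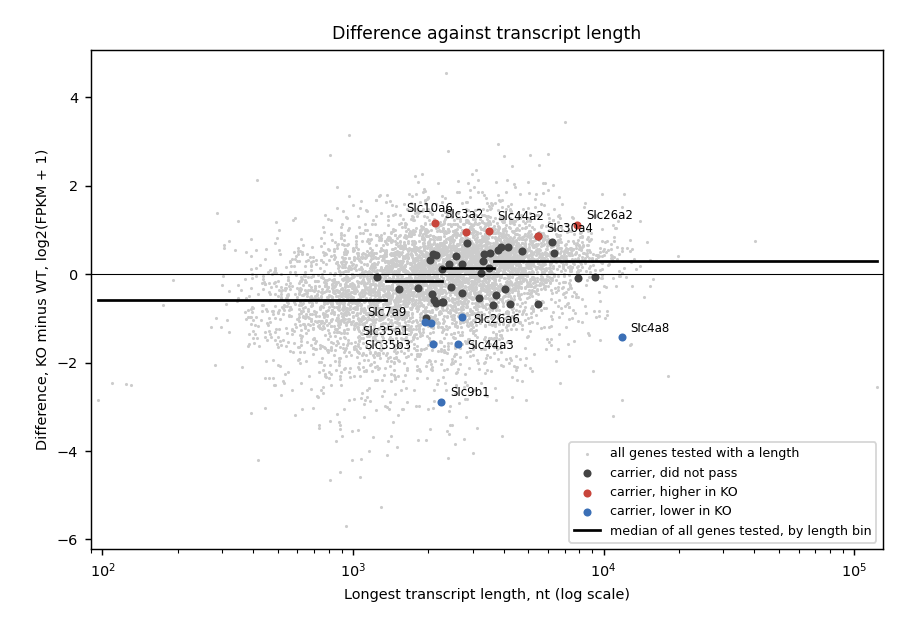
Difference between Lsm14b-KO and WT on the log2(FPKM + 1) scale against transcript length in nt (log axis, longest transcript, with RefSeq matches preferred). Shown are all 6067 tested genes with a length (light grey) and the 51 carriers with one (dark grey, or coloured where called). Black lines are medians of all tested genes by bin of length. The medians run from -0.58 to 0.29, Slc9b1 lies far below its bin, and Slc4a8 falls at the long end.

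RefSeq promoter windows (250 bases before to 50 after a start, GRCm38.p6) were found for 42 of the 52 carriers, in 58 windows. Shown, to set falls beside rises, are the windows of the 2 most abundant carriers that fell and of 2 that rose, Slc10a6 with the largest rise and Slc3a2 as the most abundant. Capitals mark E-boxes (CANNTG, the same on both strands), the motif bound by basic helix-loop-helix factors.
Slc9b1 (fell, chr3:135347779-135348078, plus strand): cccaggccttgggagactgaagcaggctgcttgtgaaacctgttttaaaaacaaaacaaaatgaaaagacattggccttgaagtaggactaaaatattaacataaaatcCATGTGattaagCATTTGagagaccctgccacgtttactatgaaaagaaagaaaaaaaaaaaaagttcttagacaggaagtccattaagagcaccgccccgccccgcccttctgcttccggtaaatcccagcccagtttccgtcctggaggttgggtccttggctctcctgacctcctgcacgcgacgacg
Slc4a8 (fell, chr15:100761497-100761796, plus strand): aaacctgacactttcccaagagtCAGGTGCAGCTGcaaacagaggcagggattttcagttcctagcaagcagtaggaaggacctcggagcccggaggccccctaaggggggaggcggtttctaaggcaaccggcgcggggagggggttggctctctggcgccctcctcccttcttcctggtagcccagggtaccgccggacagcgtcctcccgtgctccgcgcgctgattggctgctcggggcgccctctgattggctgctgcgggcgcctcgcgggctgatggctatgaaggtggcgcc
Slc10a6 (rose, chr5:103629354-103629653, minus strand): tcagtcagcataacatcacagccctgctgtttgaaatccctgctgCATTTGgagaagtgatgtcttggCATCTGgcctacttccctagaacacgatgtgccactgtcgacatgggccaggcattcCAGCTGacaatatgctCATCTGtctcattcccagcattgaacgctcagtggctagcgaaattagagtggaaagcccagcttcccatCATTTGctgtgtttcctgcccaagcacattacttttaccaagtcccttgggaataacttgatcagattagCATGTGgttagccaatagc
Slc3a2 (rose, chr19:8713848-8714147, minus strand): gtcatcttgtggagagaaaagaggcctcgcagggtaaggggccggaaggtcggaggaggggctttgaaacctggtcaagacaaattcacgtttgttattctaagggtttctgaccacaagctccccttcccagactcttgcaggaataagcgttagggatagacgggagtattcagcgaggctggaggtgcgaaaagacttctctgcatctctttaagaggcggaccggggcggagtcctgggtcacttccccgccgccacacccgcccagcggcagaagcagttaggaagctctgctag

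The Slc9b1 and Slc4a8 windows each held 2 E-boxes, the Slc10a6 window held 6 and the Slc3a2 window none. The RefSeq start of Slc3a2 lies inside the longer GENCODE gene given above. An E-box was present in 7 of 9 windows of carriers that fell, in 3 of 5 of carriers that rose and in 72.3% of all 32851 windows. The 9 windows came from 7 genes and the 5 from 4 genes, so windows are not independent. Those of Slc7a9 overlap and hold the same 2 E-boxes. The letters TAATTG, read on both strands, were in 2 of 9 and 1 of 5 windows, and in 8.0% of all. TATAAA was in 2 of 9 and 0 of 5, and in 13.6% of all, and CCAAT in 4 of 9 and 2 of 5, and in 37.4% of all. CpG pairs numbered 10 in the Slc9b1 window, 21 in Slc4a8, 4 in Slc10a6 and 15 in Slc3a2, with a median of 7 over all windows.

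Other membrane transport genes were scored from lists of pumps, channels and partner subunits. Of 15 tested subunits of the V-ATPase, the proton pump of lysosomes and the Golgi apparatus, 3 rose and none fell by limma (5 higher and 0 lower at an unadjusted p under 0.05). Over all tested genes, 6.38% were called higher and 15.2% lower, the share to set beside each list here. Among uncalled subunits, Atp6v1d (112 against 78.8 FPKM) and Atp6v1e1 (162 against 118 FPKM) lay lower in every Lsm14b-KO library. Atp6ap1, Atp6v1c1 and Atp6v1g1 lay higher in every one. Atp6ap2 stood at 11.0, 8.70 and 11.7 FPKM in WT and at 22.8, 49.5 and 42.6 FPKM in Lsm14b-KO (1.72, adjusted p = 0.0137), and Atp6v1a and Atp6v1b2 rose by 0.83 and 1.18 from means near 1 FPKM. Of 6 tested ancillary subunits, Emb, which brings monocarboxylate carriers to the membrane, fell from 4.17, 3.09 and 4.97 FPKM to 1.69, 1.10 and 1.18 FPKM (-1.12, adjusted p = 0.0137). Of 3 tested organic anion carriers named Slco, Slco1a5 fell from 126, 106 and 88.6 FPKM to 51.3, 8.60 and 22.0 FPKM (-2.24, adjusted p = 0.0295), and Slco1a4 rose from 0.635, 0.742 and 0.685 FPKM to 2.02, 6.52 and 5.92 FPKM (1.68, adjusted p = 0.0153). The WT mean of Slco1a5 was 107 FPKM, beside 99.5 FPKM for Slc9b1, and like Slc9b1 it was lowest in Lsm14b-KO replicates 2 and 3. Slco1a4 and Slco1a5 are close relatives, and whether their reads could be split was not checked. Of 7 tested ABC transporters, Abce1, a ribosome recycling factor and no transporter, rose by 1.014. Slco1a4 and Abce1 reached 1 FPKM in Lsm14b-KO libraries only, so the filter itself required their highest values to differ between groups. None of the 2 tested Na,K-ATPase subunits or the 1 tested gap junction subunit was called by limma, with 1 Na,K-ATPase subunit higher at an unadjusted p under 0.05. Each of the 7 calls was lost with 3 or more of the libraries left out in turn: without WT1 or WT2 for all but Emb, which was lost without WT1 and WT3, and without KO3 for all 7 (adjusted p = 0.0541 to 0.142). Emb did not pass on the TPM scale (-0.66, adjusted p = 0.0879). Atp6v1a did not pass with a pseudocount of 0.01, with no filter, after the length and GC correction, without the trend or with a replicate block, and Slco1a5 did not pass with no filter (adjusted p = 0.0509 to 0.0916).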

How the data were processed

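RNA levels were analysed from 1 deposited table of 3 WT and 3 Lsm14b-KO libraries, grouped by the labels. Per the labels, the authors aligned reads to mm10 with TopHat2 2.0.13 and computed FPKM values with Cufflinks 2.2.1. Cuffnorm and Cuffdiff are also named, 2 library kits are named, and strandedness is not given in the sources used here. The deposited FPKM columns were used. The authors' own fold change, p-value and q-value columns were not used.

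The 6398 genes that reached 1 FPKM in any library were fitted on log2(FPKM + 1) with limma 3.58.1 (R 4.3.3, trended prior), Lsm14b-KO against WT, with Benjamini-Hochberg adjustment over all of them and a threshold of 0.05. The pseudocount of 1 understates changes of low genes. In simulated data with 6398 genes and this design, 76% of genes whose FPKM + 1 changed 4-fold and 21% of those changed 2-fold were called. Of the calls, 3% were unchanged genes. For a gene near 1 FPKM, such a shift takes a larger fold change of FPKM itself, so these rates are too high for the same fold change of a scarce carrier. The simulation changed few genes and drew noise independently for each gene, unlike the table-wide deviation of Lsm14b-KO replicate 1. Depth was estimated per library from the commonest value of 1 fragment on the FPKM scale, given transcript length (GENCODE vM21, GRCm38). Near-identical copies were sought with blastn 2.17.0. Of the deposited symbols, 27 had been turned into dates.

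The carriers, classes and lists were chosen with earlier results of these data known. Named in full were carriers past the threshold with no overlap (the 8 largest rises and falls with a mean of at least 2 FPKM), the 8 most abundant and those known from oocytes or cumulus cells. Other called carriers are given with their values. Alternatives were other pseudocounts, filters and scalings, a length and GC correction, limma without the trend, a replicate block and each library left out.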

Additional observations from a re-analysis of the deposited data

How the results depend on the processing

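The count of carriers called higher (5) moved to 3 with a pseudocount of 0.01, to 0 with no filter on low values (limma, 10 at an unadjusted p under 0.05), to 1 of 8 carriers with a mean of at least 5 FPKM, and to 8 on the TPM scale. With each library left out it ran from 0 to 11. The count called lower (7) moved to 3 with the mean of at least 5 FPKM and to 3 on the TPM scale, and ran from 2 to 11 with each library left out. The median difference (-0.06) moved to 0.20 with the mean of at least 5 FPKM and to 0.33 on the TPM scale, and ran from -0.13 to 0.03 with each library left out. All 2560 genes with a mean of at least 5 FPKM had a median of -0.45, with 6.99% called higher and 26.7% lower. On the TPM scale the median of all tested genes was 0.40. The fewer genes tested set the counts under the mean of 5 FPKM, and for the others the cause was not tested. Over all tested genes, 408 were called higher and 975 lower, against 833 and 486 on the TPM scale and 178 and 542 with no filter. Quantile normalization gave 6 and 6 carriers, with Slc39a6 gained and Slc4a8 lost (adjusted p = 0.0744), the length and GC correction 5 and 7, and limma without the trend 4 and 7.

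A further 3 uncalled genes changed sign and stayed uncalled. Slc6a20a moved to 0.016 on the TPM scale, Slc6a9 to -0.00086 after the length and GC correction, and Slc7a11 to 0.53 on the TPM scale, 0.12 after quantile normalization and from -0.20 to 0.037 with each library left out, above 0 without WT replicate 1. Of the other values of single genes, 301 kept their side of the threshold and direction, 95 lost and 3 gained a call. Deviations of same-numbered libraries from their group means correlated at 0.19, -0.13 and 0.02, within the range of -0.275 to 0.306 of the other pairs. With 3 libraries per group this cannot show whether same-numbered libraries shared a batch, and the labels name no pairing. With the replicate block, 4 carriers were called higher and 7 lower, the median was -0.06, and Slc30a4 lost its call (adjusted p = 0.0561). Depth limits the scarce carriers: 7 to 15 of them rested on fewer than 10 estimated fragments in a given library.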
